A study of Mus musculus with 230 samples.

Results

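The genes described here are 7 neuropeptide precursors of pain and itch neurons, Calca, Calcb, Tac1, Sst, Nppb, Adcyap1 and Penk. They were chosen by name from the 53278 genes of the count table, as peptides that resting nociceptors and itch neurons are known to make. RNA came from sensory neurons of the dorsal root ganglion (DRG), the cluster of sensory cell bodies beside the spinal cord, of C57BL/6 X CAST/Ei mice. According to the labels' protocol, neurons were picked by hand from L4 and L5 ganglia after enzyme treatment, and the cytoplasm was sequenced with SMART-seq2, a method that amplifies whole transcripts from single cells. All mice shared this hybrid strain, and the groups differed in sciatic nerve injury (injured or intact) and in age. The 18 low-input libraries, each made from a small number of neurons that the labels do not give, formed 6 groups of 3: intact and injured at 1, 8 and 12 months. The 68 single neurons with counts were 18 intact and 21 injured cells at 1 month, and 8 intact and 21 injured cells at 1 year. Of these 68, 8 held under 2000 genes (109 to 1141, the next 2138), and in 2 of the 8 the neuron marker Tubb3 was at 0. The labels name no animal, no sex and no time after injury, so n counts libraries, and the p-values measure the spread between these libraries, which may be technical.

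Neuropeptides are cut from larger precursor proteins, packed into dense-core vesicles and released from the nerve endings. Peptidergic nociceptors, a class of small pain-sensing neurons, are known for calcitonin gene-related peptide (CGRP) and substance P, while a separate small class of itch neurons is known for somatostatin and natriuretic polypeptide b. Calca encodes CGRP alpha and, by splicing, calcitonin. Calcb, its neighbour and paralogue, encodes CGRP beta. Tac1 encodes substance P and neurokinin A, Adcyap1 encodes the pituitary adenylate cyclase-activating polypeptide (PACAP), Penk encodes the enkephalins, Sst encodes somatostatin and Nppb encodes natriuretic polypeptide b.

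All 7 are protein-coding genes in RefSeq, and positions here are those of the deposited table on GRCm38. Calca lies on chromosome 7 (114631478 to 114636357, minus strand, 1684 bp of exon) and Calcb on the same chromosome (114718643 to 114723365, plus strand, 1264 bp). Tac1 lies on chromosome 6 (7554879 to 7565834, plus strand, 3399 bp), Adcyap1 on chromosome 17 (93199422 to 93205485, plus strand, 2088 bp) and Sst on chromosome 16 (23889581 to 23890844, minus strand, 599 bp). Nppb (147985788 to 147987205, plus strand, 781 bp) and Penk (4133531 to 4138819, minus strand, 1634 bp) both lie on chromosome 4. Calca and Calcb share sequence, and only uniquely mapped reads were counted without regard to strand, so their counts carry that uncertainty.

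The RefSeq promoter table of GRCm38.p6 held windows of 5 of the 7 genes, and 3 are shown because their genes behaved in different ways below: Adcyap1 rose after injury, Calca was the most abundant and was not called, and Sst had no counts in the low-input libraries. Each line gives the 250 bases before an annotated start site, 5′ to 3′ on the gene's strand, and the capitals mark the cyclic AMP response element (TGACGTCA) or its core (TGACG, or CGTCA on the other strand). The Adcyap1 bases are chr17:93198767-93199016 (plus strand, the first of 2 start sites in that promoter table, both upstream of the start in the deposited table), those of Calca are chr7:114636358-114636607 (minus strand), and those of Sst are chr16:23890845-23891094 (minus strand). The RefSeq gene ranges reach further upstream, to 93198245 for Adcyap1, 114636910 for Calca and 23891342 for Sst, so these windows lie inside them.
Adcyap1: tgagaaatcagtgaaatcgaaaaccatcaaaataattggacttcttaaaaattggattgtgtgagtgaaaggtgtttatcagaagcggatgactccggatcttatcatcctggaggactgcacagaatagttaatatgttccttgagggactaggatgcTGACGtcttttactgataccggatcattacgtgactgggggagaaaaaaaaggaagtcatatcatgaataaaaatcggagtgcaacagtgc
Calca: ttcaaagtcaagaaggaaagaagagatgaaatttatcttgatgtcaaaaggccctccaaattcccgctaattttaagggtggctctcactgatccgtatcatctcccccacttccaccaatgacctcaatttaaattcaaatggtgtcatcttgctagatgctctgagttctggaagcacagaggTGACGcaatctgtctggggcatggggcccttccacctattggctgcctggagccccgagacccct
Sst: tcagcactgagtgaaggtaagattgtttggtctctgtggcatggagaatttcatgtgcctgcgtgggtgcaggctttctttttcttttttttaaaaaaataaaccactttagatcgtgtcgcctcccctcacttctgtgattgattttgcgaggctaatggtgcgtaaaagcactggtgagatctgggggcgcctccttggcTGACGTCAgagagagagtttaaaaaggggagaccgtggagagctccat

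The 5 motifs searched on both strands of the 300-base windows (250 before and 50 after the start site) were the full element, its core, the AP-1 site TGANTCA, the TATA box TATAAA and the E-box CANNTG. Counted from the start site, the core began at -91 in the first Adcyap1 window, at -65 in Calca, at -197 and -43 in Tac1 and at -48 and -45 in Sst, and it was not in the Nppb window. The 2 core matches of Sst overlap, since they are both strands of the full element. Of all 32851 promoter windows of that length, 20.8% held the core, 1.79% the full element and 7.81% the AP-1 site, which was in none of the windows of these genes. A TATA box began at -58 from the second Adcyap1 start site and at -31 from that of Nppb. These matches describe letters only.

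The low-input libraries held 7531967 to 19443627 counts of mouse genes, but 29.4% to 93.8% of them fell on 1 feature, CT010467.1, which left 770328 to 11587094 counts for all other genes. The intact library 2 of 12 months stands apart, with the highest share on that feature and 40.5% of the other counts from mitochondrial genes. Libraries of 1 and 8 months held counts of Y-linked genes and the 6 libraries of 12 months held none, so age at 12 months and sex cannot be told apart. The summed level of 9 general neuron markers, including Tubb3, in CPM (counts scaled to a common library size) was 3899 to 7281 in intact libraries and 5224 to 7860 in injured ones, so the labelled cell type was borne out by its markers. Counts of satellite glia markers were present too: 8 of them summed to 390.1 to 3034 CPM in intact libraries and 530 to 2698 CPM in injured ones. The largest intact means were S100b (454.8 CPM), Fbxo2 (354.3) and Apoe (196.5), while Sox10, Kcnj10, Cdh19 and Fabp7 stood at 0.498 to 10 CPM. In injured libraries Apoe was the largest (740.8 CPM), and those 4 stood at 2.13 to 8.49 CPM. S100b (252.7 CPM), Fbxo2 (252.9) and Fabp7 (8.49) had lower means there than in intact libraries, and the other genes of the list had higher ones. None of the 8 was called by edgeR in the injury contrast averaged over ages (2 at an unadjusted p below 0.05, as were 20.3% of all tested genes, and 1 called by DESeq2). At 1 month the glial sum was 1034 to 1313 CPM in the intact and 1836 to 2698 CPM in the injured libraries, with no overlap. The sum of 8 vessel and fibroblast markers was also higher in every injured library at 1 month (7.65 to 12.7 against 28.5 to 63.2 CPM). The same held at 8 months (7.83 to 39.5 against 48 to 58.2 CPM). Over all ages Dcn had the largest mean of this list, 35.2 CPM with injury against 11.6 CPM without it. Kdr and Col1a1 were also higher with injury, at means of 0.345 and 0.333 CPM. Cldn5 was at 0 in all intact libraries and had an injured mean of 0.014 CPM. Pdgfrb, Lum, Pecam1 and Pdgfra had lower means with injury, so the list did not move as a whole. The part of glial, vessel and fibroblast cells in the results below was not tested.

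Of the 7 genes, 4 had enough counts to be tested (Calca, Calcb, Tac1 and Adcyap1), and 3 did not (Sst, Nppb and Penk). Adcyap1 alone rose after injury, by 5.27 ± 0.73 (SE) on the log2 scale averaged over the 3 ages, with an adjusted p of 4.94e-04 in edgeR's quasi-likelihood test. Calls were made at p below 0.05 after Benjamini-Hochberg adjustment over all 14212 tested genes, of which 6.18% were called in this contrast, 5.11% as higher and 1.07% as lower in injured neurons. So 1 of the 4 tested peptides was called, and the estimates of Calca, Calcb and Tac1 were smaller than or close to their errors. In these bulk samples fewer cells of a type and less RNA per cell cannot be told apart.

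In the low-input libraries Adcyap1 stood at 1.37 CPM or less in 6 of the 9 intact libraries, while 11 of 26 intact single neurons, described further on, held 10 CPM or more. At 1 month the intact libraries held 0.0750, 9.71 and 5.88 CPM (scaled to the TMM library size, a correction for library composition), and the injured libraries held 64.3, 58.9 and 52 CPM. At 8 months the intact values were 9.99, 0.432 and 0.903 CPM, and the injured values were 91.9, 209.8 and 100.4 CPM. At 12 months the intact values were 1.37, 0 and 0 CPM, and the injured values were 68.5, 135.7 and 144.7 CPM. The groups did not overlap at any age, and the lowest of the 9 injured libraries lay above the highest of the 9 intact libraries. Higher injured libraries with no overlap were found for 10.5%, 9.39% and 19.2% of tested genes at 1, 8 and 12 months, and 0.943% placed all 9 injured libraries above all 9 intact ones. The mean over 9 libraries was 3.15 ± 4.22 CPM (SD) in intact and 102.9 ± 51.9 CPM in injured neurons.

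The ratio of the injured to the intact mean of Adcyap1 was 11.2 at 1 month, 35.5 at 8 months and 254.8 at 12 months. The last ratio rests on an intact mean of 0.457 CPM from 16 counts, and in the intact library 2 of 12 months 3 counts are worth 5.42 CPM, so its 0 could not show a level below that. In the same edgeR fit the log2 change was 3.46 ± 1.10 at 1 month (adjusted p = 0.533), 5.15 ± 1.2 at 8 months (adjusted p = 0.0576) and 7.18 ± 1.47 at 12 months (adjusted p = 0.0193). The call at 12 months ended without intact library 3 (adjusted p = 0.0695), injured library 2 (0.0599) or injured library 3 (0.0522) of that age. Without intact library 1 of 12 months the log2 change was 13.6 (adjusted p = 0.0348), since that library held all the intact counts of that age. Few genes were called at a single age, 0.232% at 1 month, 0.957% at 8 months and 2.99% at 12 months. The joint test that the injury change was equal at the 3 ages gave an adjusted p of 0.734 for Adcyap1, and it called 0% of genes by edgeR (8.17% at an unadjusted p below 0.05, 208 genes by DESeq2, and 0 of the 4 peptides by either), so the increase of the estimate with age was not shown. Without the intact library 2 of 12 months, the averaged change of Adcyap1 was 5.23 (adjusted p = 0.0021).

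**Figure D1:**
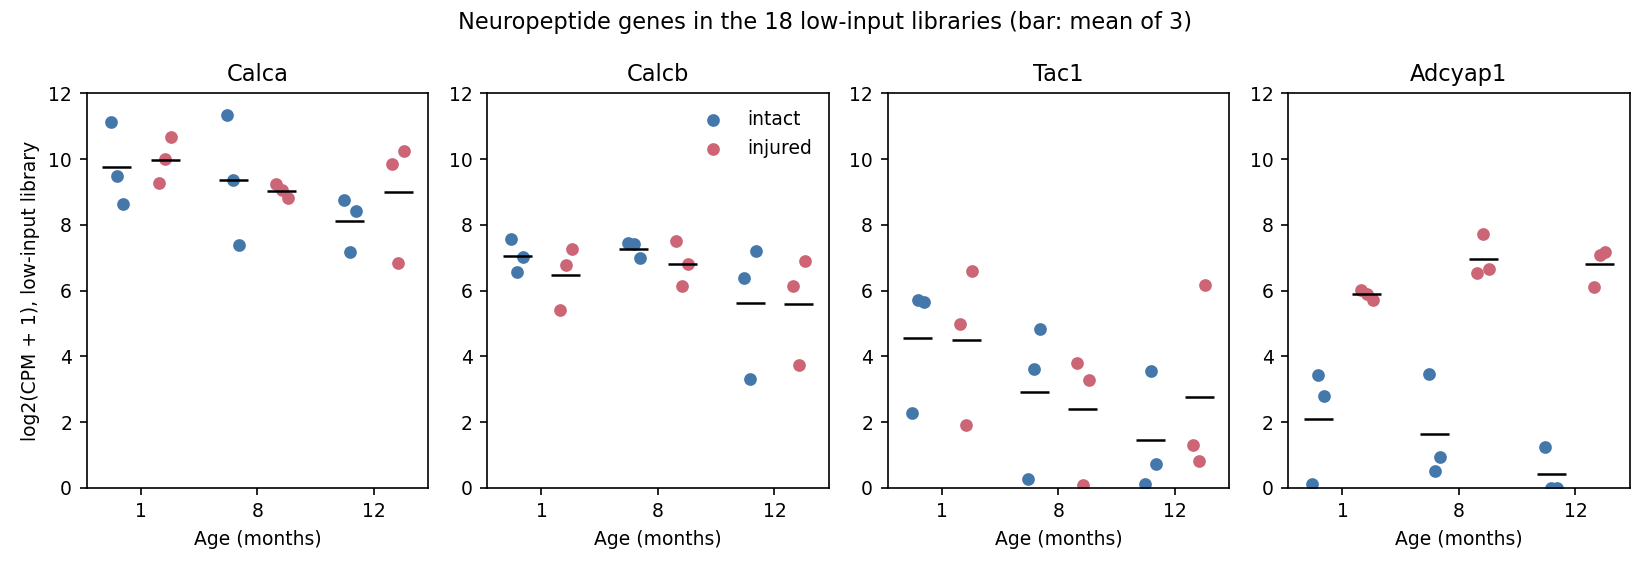
Level of 4 neuropeptide genes in each low-input library as log2(CPM + 1) against age in months, with 3 intact (blue) and 3 injured (red) libraries per age and a bar at the mean of the log values. The injured libraries of Adcyap1 lie above all intact ones, and the conditions overlap at each age for Calca, Calcb and Tac1.

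Calca was the most abundant of the set per length of exon. Its levels in intact libraries were 2240, 723.4 and 399.1 CPM at 1 month, 2612, 658.2 and 166.2 CPM at 8 months, and 436.1, 144.5 and 343.8 CPM at 12 months. In injured libraries they were 613.7, 1023 and 1648 CPM at 1 month, 602.9, 530.8 and 446.9 CPM at 8 months, and 921.7, 114.6 and 1229 CPM at 12 months. The conditions overlapped at every age, and the spread within a group reached 15.7-fold (intact, 8 months). Over 9 libraries each, the means were 858.1 ± 914.1 CPM (SD) in intact and 792.3 ± 462.1 CPM in injured neurons. The averaged log2 change was 0.04 ± 0.50 (edgeR adjusted p = 0.98), and its sign turned when any 1 of 8 libraries was left out. At single ages the estimates pointed in different directions, -0.03 ± 0.87 at 1 month, -1.12 ± 0.88 at 8 months and 1.29 ± 0.89 at 12 months, and none was called.

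Calcb, the neighbouring CGRP gene, came next. Intact libraries held 188.5, 94.9 and 128.6 CPM at 1 month, 173.9, 169.6 and 125.4 CPM at 8 months, and 81.7, 9.03 and 146.2 CPM at 12 months. Injured libraries held 41.3, 108.0 and 151.5 CPM at 1 month, 182.6, 69.2 and 112.0 CPM at 8 months, and 69.8, 12.2 and 119.3 CPM at 12 months. The 2 lowest libraries were those numbered 2 of both 12-month groups, which also held the lowest Calca, and the intact one of them rests on 5 Calcb counts. The averaged log2 change was -0.37 ± 0.43 (edgeR adjusted p = 0.689), and the 3 ages gave -0.45, -0.37 and -0.28 and adjusted p of 1, 0.924 and 0.889. All 4 estimates were negative and each was less than its error. On the level per kilobase of exon (CPM per kb), Calca exceeded Calcb 0.995 to 12.0 times in intact libraries (median 4.0) and 2.48 to 11.1 times in injured ones (median 7.11). Only the intact library 3 of 8 months had as much Calcb as Calca by this measure.

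Tac1 varied widely from library to library. Intact libraries held 3.82, 51.7 and 49.1 CPM at 1 month, 0.206, 11.4 and 27.7 CPM at 8 months, and 0.0856, 10.8 and 0.652 CPM at 12 months. Injured libraries held 30.4, 2.76 and 96.7 CPM at 1 month, 12.9, 0.0694 and 8.74 CPM at 8 months, and 1.44, 0.762 and 70.5 CPM at 12 months. Every group held a library under 5 CPM beside one at least 13.5 times higher, and the conditions overlapped at every age. The averaged log2 change was 1.30 ± 1.19 (edgeR adjusted p = 0.592). Without the injured library 3 of 12 months it was -0.22, and the change at 12 months moved from 4.45 ± 2.58 (adjusted p = 0.379) to -0.10, so 1 library set the direction of both.

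**Figure D2:**
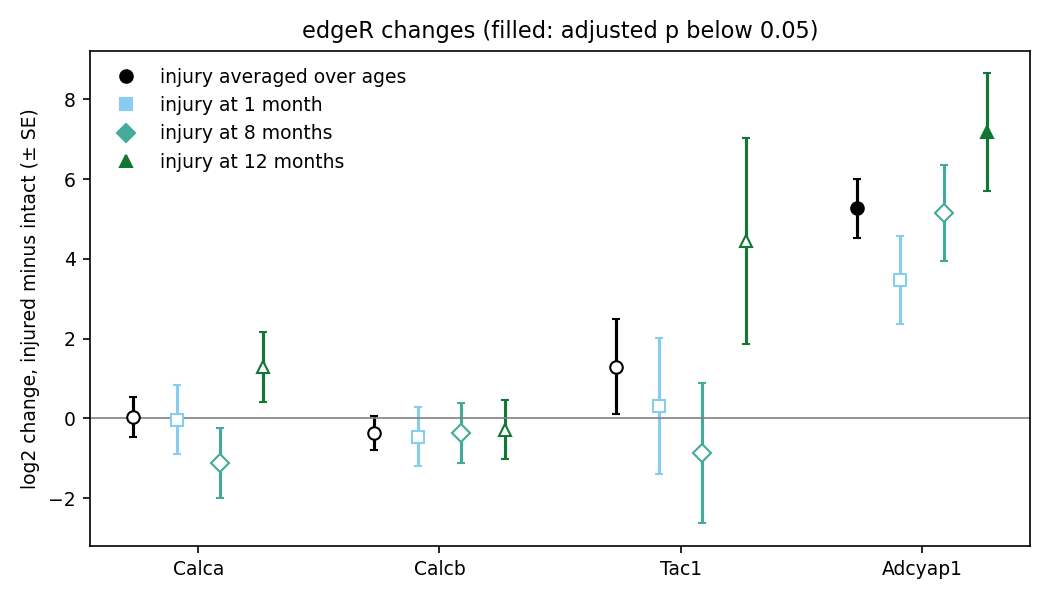
Log2 change of each tested gene, injured minus intact, averaged over ages and at 1, 8 and 12 months, with bars of 1 SE from the edgeR fit and filled marks where the adjusted p was below 0.05. Filled marks appear for Adcyap1 only, averaged over ages (5.27) and at 12 months (7.18). Values under spike-in scaling are not drawn, and each averaged value was higher under it (2.50 for Calcb).

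These directions are relative to the bulk of genes. When libraries were scaled to the ERCC spike-ins, reference RNAs added to each library, the median gene rose by 2.9 on the log2 scale in injured libraries averaged over ages, and 94.9% of genes were called. Calca (3.27), Calcb (2.50), Tac1 (4.38) and Adcyap1 (8.42) were then all called as higher, so Calcb turned from a negative to a positive value. Relative to the median gene the same changes were 0.38 for Calca, -0.40 for Calcb, 1.49 for Tac1 and 5.52 for Adcyap1.

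The 3 remaining precursors were at or near 0 in the low-input libraries. Sst had 0 counts in all 18 libraries, where 3 counts, the limit that a count of 0 allows, are worth 0.103 to 5.42 CPM in intact libraries and 0.176 to 0.278 CPM in injured ones. Nppb had 2 counts in 1 library, the injured library 3 of 8 months. Penk had 12 counts in 5 injured libraries, 1 to 4 counts in each, and 0 counts in the 9 intact ones. A level of this size was not tested. All 8 genes on a list of other genes of the Sst and Nppb itch neurons passed the filter, with a summed level of 143.4 to 980 CPM in intact libraries and of 416.5 to 747 CPM in injured ones. That sum is mostly Plcb3 and Jak1, which made up 98.1% of its mean in intact and 62.7% in injured libraries. The receptors on the list were low in intact libraries, with means of 3.28 CPM for Osmr, 1.42 CPM for Il31ra, 1.10 CPM for Cysltr2 and 0.874 CPM for Htr1f.

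Compared per kilobase of exon, the order of the median levels in intact libraries was Calca (259 CPM per kb), Calcb (101.8), Tac1 (3.19) and Adcyap1 (0.433). Calca ranked 53 and Calcb 179 among the 14212 tested genes, Tac1 ranked 4850 and Adcyap1 10303. In injured libraries the order was Calca (364.4 CPM per kb, rank 34), Calcb (85.5, rank 216), Adcyap1 (44, rank 480) and Tac1 (2.57, rank 5657), so Adcyap1 and Tac1 changed places. The intact ranges of Calca (85.8 to 1551 CPM per kb) and Calcb (7.14 to 149.1) overlapped, as did those of Tac1 (0.0252 to 15.2) and Adcyap1 (0 to 4.79). Within a library Calca lay above Calcb in 8 of 9 intact and 9 of 9 injured libraries, and Tac1 lay above Adcyap1 in 7 of 9 intact and 1 of 9 injured libraries. The lowest intact Calcb value, in the library of 12 months that stands apart, also lay below the highest Tac1 value. In injured libraries the ranges of neighbours in the order overlapped as well, Calcb at 9.69 to 144.5, Adcyap1 at 24.9 to 100.5 and Tac1 at 0.0204 to 28.4 CPM per kb, and Calcb lay above Adcyap1 in 7 of the 9.

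Age was tested within each condition. None of the 4 genes was called over the 3 ages in intact neurons, the adjusted p being 0.324 (Calca), 0.676 (Calcb), 0.419 (Tac1) and 0.399 (Adcyap1), where 4.17% of genes were called. None was called in injured neurons either (adjusted p = 0.999 for each), where 0.218% of genes were called. At an unadjusted p below 0.05, which 22.6% of genes reached in intact and 4.6% in injured neurons, and in DESeq2, 0 of the 4 were called in either condition. The intact group means of Tac1 were 34.9 ± 26.9 CPM (SD, n = 3) at 1 month, 13.1 ± 13.8 at 8 months and 3.86 ± 6.05 at 12 months, a difference within the spread between libraries. The intact means of Calca were 1121 ± 983, 1145 ± 1293 and 308.1 ± 149.0 CPM at the same ages. At 12 months age cannot be told apart from the loss of Y-linked counts described above.

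Across the 18 libraries the levels of the 4 genes were only loosely related. Spearman's rho of log2(CPM + 1) was 0.48 for Calca with Calcb, 0.17 for Calca with Tac1, 0.15 for Calca with Adcyap1, and -0.29 for Calcb with Adcyap1. These are descriptions over 18 libraries that share the depth and composition differences given above and that include both injured and intact libraries. The 3 genes most like Calca were Kcnv1 (rho 0.93), Oprm1, the mu opioid receptor (0.92), and Gm13028 (0.92, at a median under 1 CPM). Those most like Calcb were Pknox2 (0.93), Tusc5 (0.92) and Nmb, a precursor of neuromedin B (0.90). The genes most like Adcyap1 were Atp6ap1, an accessory subunit of the vacuolar proton pump (0.96), Ano10 (0.94) and Slc35f6 (0.94), and those most like Tac1 were Phc1 (0.77), Cdca8 (0.76) and Shroom2 (0.72), all with medians under 2 CPM. The 3 genes most like Adcyap1 had higher medians in injured than in intact libraries (236.6 against 149 CPM for Atp6ap1). No pair among the 4 peptides reached the likeness of these neighbours. That comparison carries no information, since the neighbours were picked as the highest rho among all tested genes.

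The other genes of the peptide pathway were read from lists chosen with earlier results of these data known. Of 15 genes that process peptides or build dense-core vesicles, all were tested and 0 were called by edgeR in the averaged injury contrast (6 at an unadjusted p below 0.05, beside 20.3% of all genes, and 2 called by DESeq2). The list's median log2 change was -0.10 beside 0.03 over all genes. The most abundant of them, Pcsk1n, an inhibitor of the prohormone convertase that cuts peptide precursors, had a mean of 717.2 ± 434.5 CPM (SD, n = 9) in intact libraries and 527.8 ± 112.6 CPM in injured ones (log2 change -0.40 ± 0.22, adjusted p = 0.332). Of 10 tested genes of peptidergic nociceptors, 1 rose and 1 fell, beside 5.11% and 1.07% of all tested genes, with a list median of 0.18. Gfra3, the artemin receptor, rose from 6.38 ± 12.9 to 23.3 ± 18.8 CPM (log2 change 4.97 ± 0.89, adjusted p = 0.00326). A log2 change here averages the changes at single ages, so it is not the log2 ratio of the means printed beside it. Prdm12, a transcription factor of nociceptors, fell by 1.59 on the log2 scale (107.7 ± 160.5 against 22 ± 22.2 CPM, adjusted p = 0.0189), a call that ended without the injured library 1 of 1 month (adjusted p = 0.0505) and its value under spike-in scaling was 1.15, which is -1.75 relative to the median gene.

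The list of other genes of the itch neurons had 5 of 8 genes higher and 0 lower, beside 5.11% and 1.07% of all tested genes, with a median of 2.01, while Sst and Nppb themselves were at or near 0. The largest was Nts, the precursor of neurotensin, which went from 0.151 ± 0.195 CPM in intact libraries to 196.5 ± 80.1 CPM after injury (log2 change 10.1 ± 0.60, adjusted p = 3.52e-08), and it also counts in the list of other neuropeptides. Ada, adenosine deaminase (4.22 ± 1.02, adjusted p = 0.026), Htr1f, a serotonin receptor (3.18 ± 0.68, adjusted p = 0.0089), and Il31ra, an interleukin 31 receptor subunit (3.04 ± 0.61, adjusted p = 0.00581), stood at means under 12 CPM in both conditions, and the call of Ada ended in 3 of the 18 fits that left out 1 library. The fifth gene, Jak1, a kinase, lost its call in 7 of those fits.

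Of 10 tested genes of non-peptidergic nociceptors, 1 was higher and 0 were lower, beside the same 5.11% and 1.07%, and the median was -0.62. That gene was Gfra1, a GDNF receptor subunit, with 53 ± 29.4 CPM in intact libraries and 263.5 ± 135.3 CPM after injury (log2 change 2.30 ± 0.61, adjusted p = 0.034), and its call ended in 12 of the 18 fits that left out 1 library. The most abundant gene of that list, Ret, the receptor kinase for GDNF-family ligands, had a log2 change of 0.29 ± 0.55 (adjusted p = 0.825). Of 17 other neuropeptide genes, 10 were tested, 5 of these rose and 0 fell, again beside 5.11% and 1.07%, with a median of 4.89. The 4 largest were Nts, Gal (galanin), Npy (neuropeptide Y) and Ucn (urocortin). The mean of Gal went from 1.71 ± 3.44 CPM to 344.1 ± 248.5 CPM after injury, and that of Npy from 0.917 ± 1.22 to 565.4 ± 228.7 CPM. Their log2 changes were 9.87 for Gal, 9.69 for Npy and 9.46 for Ucn. The log2 change of Adcyap1 was smaller and its intact mean higher than those of these 4, a difference that was not tested, and it ranked 159 by log2 change among the 726 genes called higher.

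**Figure D3:**
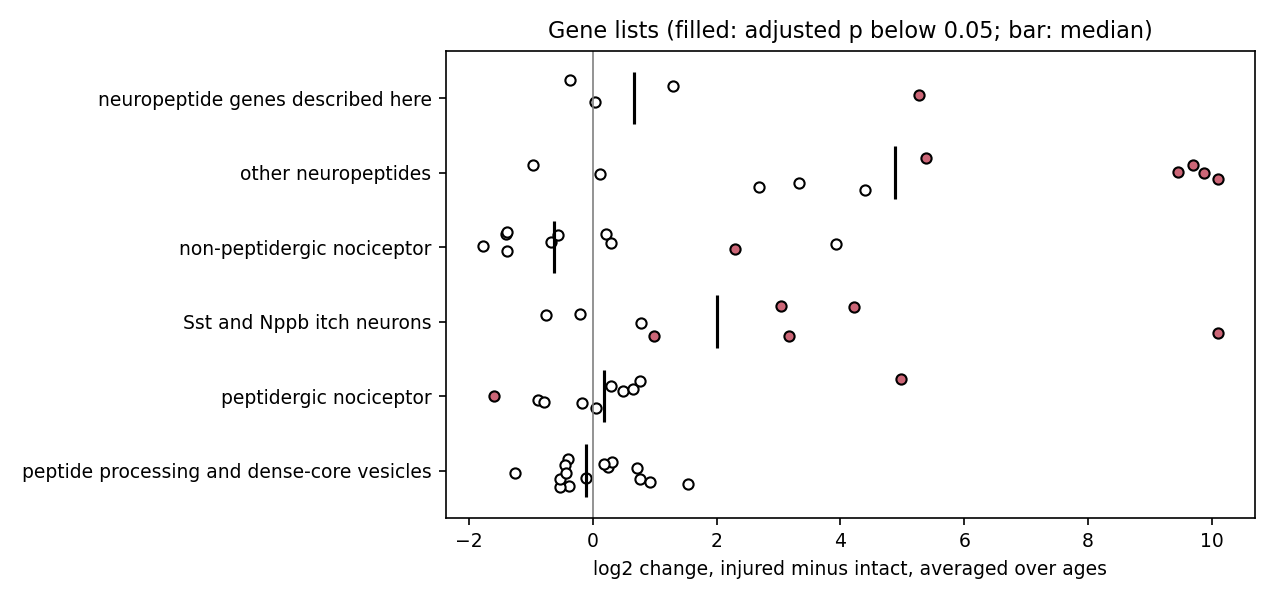
Log2 change, injured minus intact, averaged over ages, of each tested gene in 5 lists and in the set described here (top row), with a bar at the list median and filled points where the adjusted p was below 0.05. The processing genes lie around 0 with a median of -0.10, while 5 of the 10 other neuropeptides lie far to the right, as does Adcyap1 at 5.27 in the top row.

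Single neurons show how the peptides were spread over cells. Each of the 4 groups counts as 1 sample, because the labels name no animal, so no test between groups was made, and intervals cover counting error only. A cell was called positive at 10 CPM or more, with CPM taken over the counts outside CT010467.1. This cell scale differs from the TMM scale of the low-input libraries. The median of those counts was 291824 in intact and 1033580 in injured cells of 1 month, and 7145018 in intact and 3571619 in injured cells of 1 year. Cells of 1 year held at most 1 count of Y-linked genes, and the medians at 1 month were 11.5 in intact and 112 in injured cells. ERCC spike-in counts were 0 to 118 in cells of 1 year and 3419 or more in those of 1 month. In the cells, age therefore cannot be told apart from sex or from this spike-in difference. In a cell with under 100000 counts a single count makes it positive, and 55 of the 68 cells had at least that many. At least 1 of the 7 genes was positive in 62 of 68 cells. Among the 60 cells with at least 2000 genes, a limit chosen after seeing the data, this number was 59, and Calca was positive in 52, Calcb in 50, Tac1 in 19 and Adcyap1 in 26. Of the 8 cells below it, 3 were positive for Calca, 1 for Calcb and 0 for the other 5 genes, and 6 had at least 20% mitochondrial counts.

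Calca was positive in 55 of 68 cells and ranged from 0 to 32035 CPM. By group it was positive in 12 of 18 intact cells of 1 month (66.7%, Clopper-Pearson 95% interval 41% to 86.7%), 15 of 21 injured cells of 1 month (71.4%, 47.8% to 88.7%), 8 of 8 intact cells of 1 year (63.1% to 100% as interval) and 20 of 21 injured cells of 1 year (95.2%, 76.2% to 99.9%). The median levels were 889.7, 1481, 775.7 and 1551 CPM in the same order. At 1000 CPM or more, 9, 11, 4 and 12 cells remained, so in every group about as many cells lay above this level as below it. Calcb was positive in 51 cells, and 49 of these were also positive for Calca. Of the 36 cells with Calca at 1000 CPM or more, 31 held Calcb at 100 CPM or more, as did 39 of all 68 cells.

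Tac1 was positive in 19 of 68 cells, and 18 of these were positive for Calca, as were 55 of all 68. By group Tac1 was positive in 8 of 18 intact (44.4%, interval 21.5% to 69.2%) and 4 of 21 injured cells (19%, 5.45% to 41.9%) of 1 month, and 2 of 8 intact (25%, 3.19% to 65.1%) and 5 of 21 injured cells (23.8%, 8.22% to 47.2%) of 1 year. Of all 68 cells, 36 held Calca at 1000 CPM or more and 39 held Calcb at 100 CPM or more. Of the 11 cells with Tac1 at 100 CPM or more, 9 held that much Calca and all 11 held that much Calcb. The highest, an intact cell of 1 month from 22608 counts, held 3312 CPM of Tac1 with 12841 CPM of Calca and 1095 CPM of Adcyap1. That cell gave 53.8% of the Tac1 counts and 89.4% of the Adcyap1 counts of its group.

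**Figure D4:**
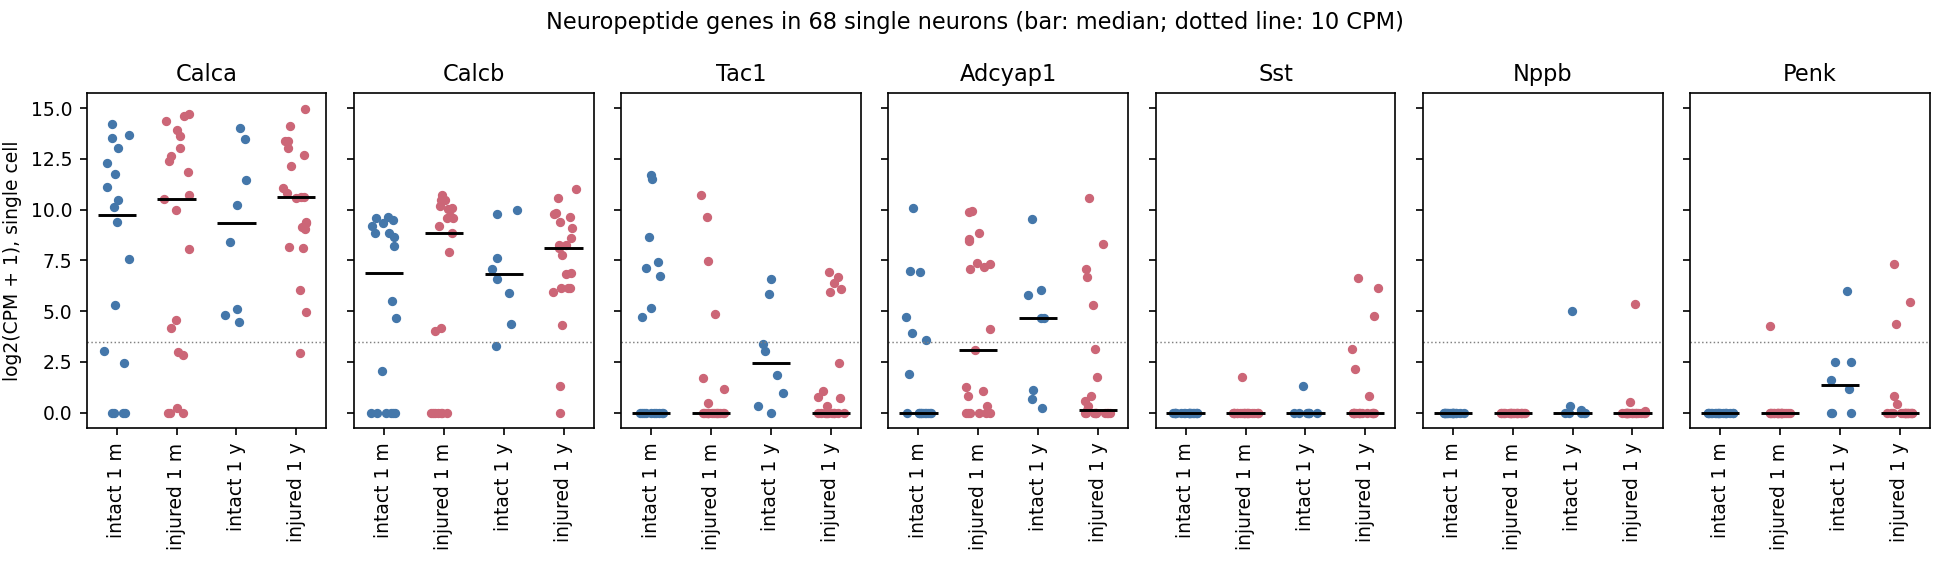
Level of the 7 genes in 68 single neurons as log2(CPM + 1) by group (blue intact, red injured), with 1 point per cell, a bar at the group median and a dotted line at 10 CPM. Calca and Calcb fill most cells of every group, Tac1 and Adcyap1 a minority of cells in most groups, and Sst, Nppb and Penk 3, 2 and 5 cells.

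Adcyap1 was positive in 6 of 18 intact cells (33.3%, interval 13.3% to 59%) and 10 of 21 injured cells (47.6%, 25.7% to 70.2%) of 1 month, and in 5 of 8 intact (62.5%, 24.5% to 91.5%) and 5 of 21 injured cells (23.8%, 8.22% to 47.2%) of 1 year. At 100 CPM or more these numbers were 3, 9, 1 and 4. The pooled level of a group was 230.1 CPM for intact cells and 241.5 CPM for injured cells at 1 month, and 93.9 CPM and 32.1 CPM at 1 year. The single cells therefore did not show, as pooled levels, the separation seen in the low-input libraries. In each group 1 cell held 47.5% to 89.4% of the Adcyap1 counts, so pooled levels follow single cells.

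Among injured cells, Adcyap1 went with Sprr1a, a small proline-rich protein gene known to be switched on in sensory neurons after nerve damage. Of the 12 injured cells with Sprr1a at 10 CPM or more, 10 held Adcyap1 at 100 CPM or more, with a range of 0 to 1516 and a median of 334.2 CPM. Of the 30 injured cells under 10 CPM of Sprr1a, 3 held Adcyap1 at 100 CPM or more, with a range of 0 to 142.2 and a median of 0.0449 CPM. The numbers were 8 of 9 against 1 of 12 at 1 month, and 2 of 3 against 2 of 18 at 1 year. Among cells with at least 100000 counts they were 8 of 9 against 3 of 26, and among cells with at least 2000 genes 10 of 11 against 3 of 26. Cells are not replicates, and this relation was noticed in these cells, so it is given as a description with no test.

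Depth and ganglion moved with this pattern. The injured cells with Sprr1a at 10 CPM or more had a median of 707934 counts, and the others had 3524090. At 1 month all 9 of them, and all 9 cells with Adcyap1 at 100 CPM or more, had names beginning with L4, the name of 1 of the ganglia picked, of 13 such injured cells. The 8 injured cells with names beginning with L5 held 16.4 CPM of Adcyap1 at most and 0 of them reached 10 CPM of Sprr1a. Within the L4 cells, 8 of 9 with Sprr1a and 1 of 4 without it held Adcyap1 at 100 CPM or more. The 4 without it included cells of only 458 and 608 genes, with 60.6% and 68.3% mitochondrial counts. The rest of the 4 held 142.2 and 1.38 CPM of Adcyap1. The cell with Sprr1a but no Adcyap1 held 310 genes. Too few well-covered L4 cells without Sprr1a remain to show the relation within this ganglion. At 1 year the 3 injured cells with Sprr1a at 10 CPM or more had 97.2% to 99.5% of their counts on CT010467.1. That left them 29021 to 187292 other counts, so their levels rest on few reads. The part of depth in the pattern was not tested.

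Taken over both ages, the injured cells with high Adcyap1 also differed in Calca. Of the 13 injured cells with Adcyap1 at 100 CPM or more, 4 held Calca at 1000 CPM or more, and of the 29 others, 19 did (17 of 24 among those with at least 2000 genes). The median Calca was 268.8 CPM in the first and 1787 CPM in the second class. By age, 2 of 9 high-Adcyap1 cells at 1 month and 2 of 4 at 1 year held Calca at 1000 CPM or more. Of all injured cells, 11 of 21 and 12 of 21 did. At 1 month, where all 9 high-Adcyap1 cells had L4 names, 4 of 13 injured L4 and 7 of 8 injured L5 cells held this much Calca. Of the 4 intact cells with Adcyap1 at 100 CPM or more, 3 held Calca at 1000 CPM or more, beside 10 of the other 22. The 13 injured cells held a median of 8.45 CPM of Scn10a, a sodium channel of nociceptors, against 404.4 CPM in the other 29. Their median of Nefh, the heavy neurofilament of large neurons, was 1348 CPM against 839.8 CPM. The part of age and ganglion in these differences was not tested. The highest level, 1516 CPM in an injured cell of 1 year, came from 44 counts.

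**Figure D5:**
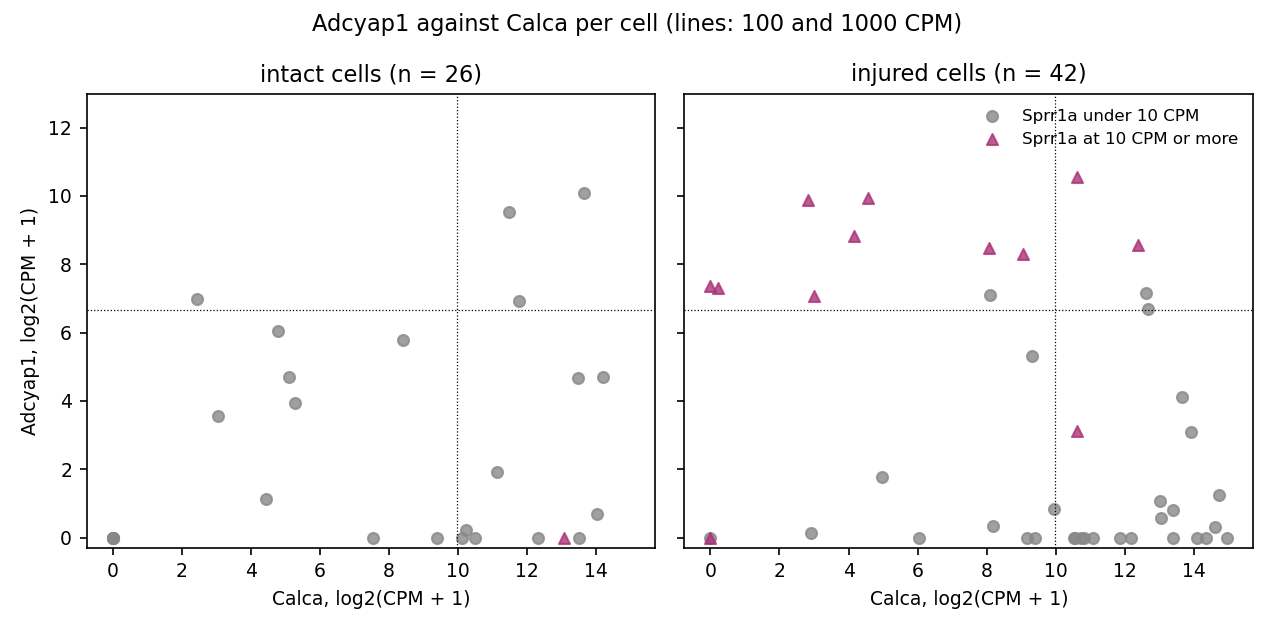
Adcyap1 against Calca in each single neuron as log2(CPM + 1), intact cells (n = 26) on the left and injured cells (n = 42) on the right, with triangles for cells with Sprr1a at 10 CPM or more and dotted lines at 100 CPM of Adcyap1 and 1000 CPM of Calca. In injured cells 10 of the 13 points above the Adcyap1 line are triangles, and 9 of the 13 lie left of the Calca line.

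Sst, Nppb and Penk were rare. Sst was positive in 0 of 18 intact and 0 of 21 injured cells of 1 month, which allows shares of up to 16.7% and 14.3%, in 0 of 8 intact cells of 1 year, which allows up to 37.5% (3 cells of the total, a limit on cells with such a level and not on cells that express the gene), and in 3 of 21 injured cells of 1 year (14.3%, interval 3.05% to 36.3%). Over cells with at least 2000 genes the limits for 1 month were 20% and 16.7%. The highest held 98.3 CPM from 402 counts. Nppb was positive in 2 cells of 1 year, 1 injured (40.3 CPM) and 1 intact (31 CPM), and in no cell of 1 month. Penk was positive in 5 cells, 1 injured cell of 1 month (18.5 CPM), 1 intact cell of 1 year (63 CPM) and 3 injured cells of 1 year (19.3, 43 and 160.7 CPM). The Nppb and Penk genes met in 2 cells, since both Nppb cells were also positive for Penk.

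These rare cells had unusual RNA. Together 7 cells were positive for Sst, Nppb or Penk, and 5 of them had 23.9% to 43.3% of their counts from mitochondrial genes, where the median of all cells was 2.53%. These were all 5 cells of 1 year at or above 20%. Their Tubb3 was low, 78.8 to 1187 CPM beside a median of 4708 CPM over all cells. The part of this in the rare peptides was not tested. Another of the 7 held 68.9 CPM of Sst from 2 counts. The remaining one, the injured cell of 1 month with Penk, had 0.813% mitochondrial counts, 8059 CPM of Sprr1a, 158.2 CPM of Adcyap1 and 0.177 CPM of Calca.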

How the data were processed

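The table that the authors deposited gives unnormalized counts of read pairs for each gene, made with featureCounts 1.5.2 (paired, unstranded, unique reads, exons summed by gene) on GENCODE vM16, per the file headers. Mapping with STAR on mm10 is named in the submitters' processing notes, with no version. The deposited table also gives exon length in bp (unit other). The methylation samples are not analysed here. Repeat deposits of 1 name share 1 count column and were counted once. The members and lists were chosen with earlier results of these data known. All 7 members are described; of each list, up to 4 called genes with the largest change are named, or the most abundant gene where fewer than 2 were called, and Jak1 was named after its values were seen. The model for the low-input libraries was edgeR's (4.0.16, under R 4.3.3): no spike-ins, filterByExpr, TMM, robust quasi-likelihood, 1 mean per group, all 18 libraries, common biological coefficient of variation 0.543. The fit was also run on counts simulated from its own dispersions, which cannot show whether the model suits these libraries. TMM-scaled CPM, log2 changes, and shares were computed here. Alternatives were RLE scaling, no filter, DESeq2 1.42.0, spike-in scaling, omission of CT010467.1, only the groups compared, a replicate block and leaving out each library; for cells, other thresholds and denominators. Tests are two-sided. Replicate numbers were checked for pairing; correlations of deviations were 0.080 to 0.299 at 1 month, -0.400 to 0.029 at 8 months and -0.066 to 0.035 at 12 months, so numbers were not taken as pairs.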

Additional observations from a re-analysis of the deposited data

Results flagged for a closer look

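Outlying values were looked for in the 8 intact cells of 1 year, the only group with 4 to 10 samples, by Dixon's ratio of the largest gap to the range, and such a rule marks about 1 in 20 groups of normally distributed values by chance, which these sparse values are not. In 4 of the 7 genes the highest cell stood apart from the other 7. For Adcyap1 it held 745.2 CPM beside 64.9 CPM in the next cell, and it gave 77.8% of the group's Adcyap1 counts. For Penk it held 63 CPM beside 4.64 CPM, and for Nppb 31 CPM beside 0.258 CPM, and these 2 values came from the same cell, in which 43.3% of counts were mitochondrial. For Sst the highest cell held 1.46 CPM from 15 counts, and the other 7 cells held 0, a case in which the ratio is 1 whatever the value. Calca, Calcb and Tac1 showed no such cell.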

How the results depend on the processing

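Adcyap1 was called as higher in injured neurons, averaged over ages, under all 25 alternatives (log2 change 5.07 to 8.42, adjusted p 6.7e-68 to 0.0119). The number of genes called among the 7 was 1 in that contrast and rose to 2 with no filter on low counts and to 4 with spike-in scaling. Spike-in scaling gave 4 at 12 months, 1 at 8 months, 4 for age within intact neurons and 1 for the interaction. With no filter there was 1 at 1 month, 1 at 8 months, 3 at 12 months, 3 for age within intact, 1 for age within injured neurons and 3 for the interaction. DESeq2 gave 1 at 8 months. Leaving out 1 library gave 1 to 1 averaged over ages and 0 to 1 at both 8 and 12 months. With replicate number as a block, which the pairing check did not bear out, 0 were called at 12 months (Adcyap1 7.24, adjusted p = 0.130) and the averaged call of Adcyap1 remained (5.84, adjusted p = 0.0119).

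Several changes turned sign. Calca at 1 month went to 0.0123 with RLE scaling, 0.0123 with DESeq2, 0.27 with the block and 1.81 with spike-ins. Spike-in scaling gave 1.4 for Calca, 1.24 for Calcb and 0.67 for Tac1 at 8 months, and for Calcb 2.50 averaged, 1.03 at 1 month and 5.22 at 12 months. Prdm12 went to 1.15 under it. Spike-in scaling moved all genes, and relative to the median gene the values at 8 months were -0.63, -0.79 and -1.36, those of Calcb -0.40, -0.27 and -0.14, that of Prdm12 -1.75 and that of Calca at 1 month 0.51. Of these, only the last turned in relative terms. Tac1 at 1 month kept its sign under spike-in scaling but was -0.01 relative to the median gene, beside 0.31 in the main fit. Over fits without 1 library, Calca ranged from -0.13 to 0.54 averaged, -0.45 to 0.96 at 1 month and -1.63 to 0.36 at 8 months. Calcb ranged from -0.98 to 0.45 at 12 months. Tac1 ranged from -0.22 to 1.96 averaged, -1.07 to 0.86 at 1 month, -1.57 to 0.32 at 8 months and -0.10 to 6.44 at 12 months. The block ended the averaged calls of Prdm12, Il31ra, Jak1, Ada, Gfra1 and Crh. The cause of these shifts was not tested. In cells, only those with at least 100000 counts, a choice made after seeing the data, kept Adcyap1 positive in 5 of 12 intact and 9 of 17 injured cells of 1 month. Leaving out the 8 cells with under 2000 genes, also chosen after seeing the data, lowered the Calca count to 52 of 60 cells. Depth limits the intact library 2 of 12 months most, where 3 counts are worth 5.42 CPM, beside 0.652 CPM or less in the other 17.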

Other observations

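Cells differed in how many of the 7 precursors they held. Of 68 cells, 6 were positive for none, 6 for 1, 27 for 2, 18 for 3, 9 for 4, 1 for 5 and 1 for 6 of them, and the usual pair was Calca with Calcb. At least 1 gene was positive in 14 of 18 intact and 19 of 21 injured cells of 1 month, and in all 8 intact and all 21 injured cells of 1 year. At 100 CPM of Calca, 5 of the 8 intact cells of 1 year remained, so 3 of the 8 lay between 10 and 100 CPM.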
